A study of Mus musculus with 2 samples.

Results

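C-type lectin receptors were followed across brain myeloid cells of mice with and without Arpc4, by the gene symbols of 9 receptors: Clec4a1, Clec4a2, Clec4a3, Clec4d, Clec4e, Clec4n, Clec5a, Clec7a and Clec12a. Rows for 8 of the 9 were found among the 32285 genes of the tables, and Clec7a (dectin-1) was not analysed here. Single-cell RNA sequencing (10x Genomics 3′ chemistry, which counts unique molecular identifiers, UMIs, near the 3′ end of each transcript) had been run on viable CD45+ cells sorted from the brains of 8 mice, 4 per genotype, at 12 weeks of age. Arpc4dCx3cr1 mice (knockout) carried Tg(Cx3cr1-Cre) and Arpc4 fl/fl. Control mice were littermates with Arpc4 fl/fl and no Cre. Arpc4 is a subunit of the Arp2/3 complex, which nucleates branched actin. Both groups had the floxed alleles, so that the presence of Cre and the loss of Arpc4 cannot be told apart in this comparison. The Cx3cr1 promoter that drives the Cre is active in microglia and in other mononuclear phagocytes as well.

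C-type lectin receptors of this kind are membrane proteins on myeloid cells that bind sugars, lipids or products of dead cells. Some of them activate the cell through Fcer1g, Tyrobp or a motif of their own and the kinase Syk, whereas others carry an inhibitory motif that recruits phosphatases. In the resting brain some of them differ in level between microglia, CNS-associated macrophages (CAMs) and blood-derived monocytes.

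All of the 9 genes lie on mouse chromosome 6 (mm10, GENCODE vM21). Clec4a1 (122921848-122934619), Clec4a3 (122952515-122969875), Clec4a2 (123106428-123143999), Clec4n (123229843-123247021), Clec4d (123262111-123275265) and Clec4e (123281789-123289870) follow each other within 1 stretch, with Clec4e alone on the minus strand. Clec12a (129342691-129365303, plus strand) and Clec7a (129461591-129472779, minus strand) are neighbours further along, and Clec5a (40574894-40585821, minus strand) stands far apart from them. Clec7a is typed as a polymorphic pseudogene in that annotation and the other 8 as protein coding. Near their 3′ ends, where the reads fall, only Clec4a2 shared any 90-base stretch with another gene, with 61 of its 1782 stretches also found in Clec4a4, so that a small part of the Clec4a2 reads could not be assigned to 1 of the 2 genes with certainty.

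The bases upstream of the RefSeq starts (GRCm38.p6) are shown for the 3 genes whose level in microglia differed between genotypes. The letters searched on both strands were GAGGAA for PU.1, TTGCNNAA for C/EBP and TGANTCA for AP-1, and matches stand in capitals. For Clec12a only stretches of 30 bases around the matches are shown, because an annotated exon overlaps the start of the window.
Clec4a2, chr6:123122440-123122621, plus strand: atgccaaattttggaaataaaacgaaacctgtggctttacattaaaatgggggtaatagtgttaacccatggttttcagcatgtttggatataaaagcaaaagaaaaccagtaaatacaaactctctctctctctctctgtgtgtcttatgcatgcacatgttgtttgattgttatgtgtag
Clec4a3, chr6:122952265-122952514, plus strand: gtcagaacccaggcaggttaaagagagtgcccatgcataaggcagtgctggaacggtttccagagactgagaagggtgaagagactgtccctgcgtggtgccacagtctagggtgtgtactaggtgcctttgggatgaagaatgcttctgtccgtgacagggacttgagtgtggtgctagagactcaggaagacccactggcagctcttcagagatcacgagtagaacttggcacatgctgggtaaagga
Clec12a, chr6:129350020-129350049, plus strand: catttgagattTGAATCActccgattattt
Clec12a, chr6:129350093-129350122, plus strand: gtaggagcaaaTTGCGCAActcgtatgaag
Clec12a, chr6:129350178-129350207, plus strand: aatatGAGGAAgaaaagtgTTCCTCtttca
In the 250 bases before its start Clec12a held 2 matches to GAGGAA, 1 to TTGCNNAA and 1 to TGANTCA, while the stretches shown for Clec4a2 and Clec4a3 held none. Among the other receptors with a window, Clec4a1, Clec5a and Clec4e also held 2 matches to GAGGAA, and Clec4d and Clec7a held 1. Clec4e also held 1 match to TTGCNNAA. A link between these matches and the genotype differences was not tested. Of 32851 RefSeq promoter windows of the same length, 23.3% held GAGGAA, 9.56% held TTGCNNAA and 6.75% held TGANTCA. A second RefSeq start of Clec4a3 has a window with 1 match to GAGGAA.

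The 19863 cells that were kept carried 5251527 to 12878691 UMIs on genes per mouse, and no barcode was shared between mice. Cells were clustered without the receptors and a list of other C-type lectin genes, and called microglia-like, CAM-like or monocyte-like by marker genes. The CAM markers included Mrc1 and Cd209f, so that the naming was not free of lectin genes. There were 994 to 2379 microglia-like, 21 to 111 CAM-like and 14 to 115 monocyte-like cells per mouse, while 4.59% to 14.4% of the cells of a mouse fell in clusters left unnamed. Most control microglia-like cells lay in clusters led by Csmd3, Ecscr or Crybb1, and most knockout cells in clusters led by Ctnna3, Tafa1 or Cst7, by Xist and Fn1, or by haemoglobin genes and Ms4a7. The microglia-like cluster led by Xist and Fn1 was nearly all from a single animal, with 97.3% of its cells from knockout mouse 1. All 10 microglia markers fell in knockout microglia-like cells, from a summed 22230 to 22566 CPM (the UMIs of a gene relative to all UMIs on genes of that sum, scaled to the same total) in control mice to 8750 to 12450 CPM in knockout mice. Arpc4 itself stood at 224 to 242 CPM in control and at 131 to 146 CPM in knockout microglia-like cells, a log2 fold change of -0.63 ± 0.05 (SE; adjusted p = 5.12e-06 by edgeR's quasi-likelihood test). In CAM-like cells it stood at 169 to 218 against 210 to 231 CPM, and in monocyte-like cells at 191 to 280 against 234 to 305 CPM, so that Arpc4 counts were not lower in these classes of the knockout mice. Counts at the 3′ end do not measure the deletion of an upstream exon. Knockout mouse 1 stood apart with 1383 CPM of Xist in microglia-like cells against 13.5 CPM or less in the other 7 mice. The study's methods mention a single female among the knockout mice, all other mice being male, and the labels do not say which one it was.

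In microglia-like cells, Clec4a2 and Clec4a3 fell in the knockout and Clec12a rose. Clec5a and Clec4a1 did not pass the test with all 8 mice and passed it without knockout mouse 1. Of the 8 receptors 5 passed the filter on low counts, and 3 of these 5 were called, 2 lower and 1 higher. The background is high, since 46.7% of the 12663 genes tested were called between these genotypes, and the median log2 fold change was -0.77 over the 5 receptors and -0.01 over all genes. The plot of levels by mouse shows all 8 receptors.

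**Figure D1:**
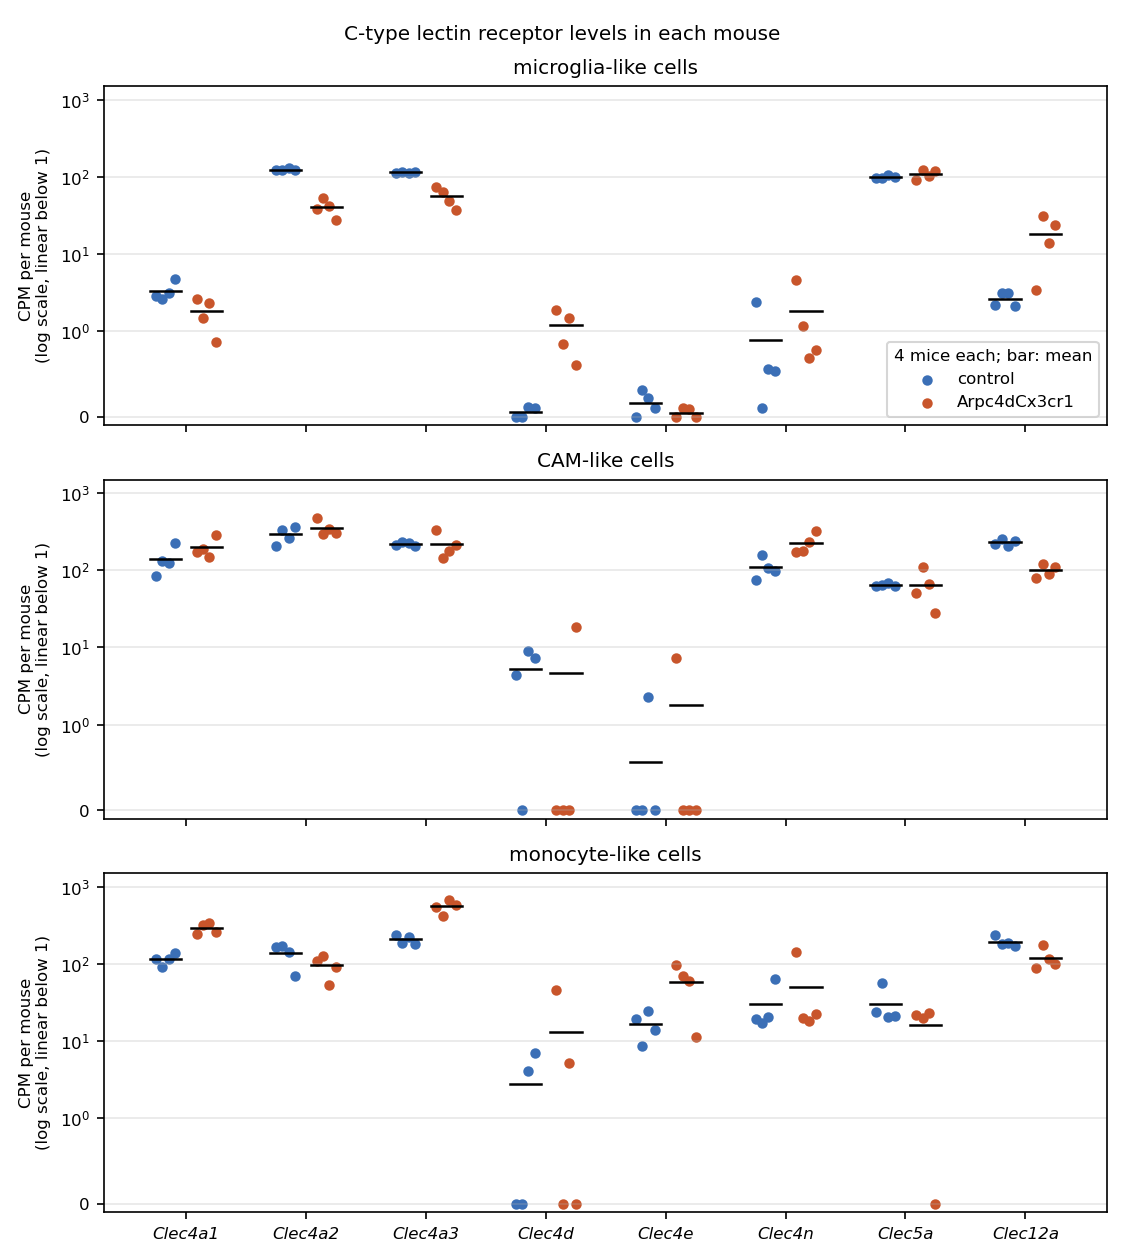
Level of each C-type lectin receptor in CPM (log axis, linear below 1) in microglia-like, CAM-like and monocyte-like cells, with a point for each of 4 control (blue) and 4 Arpc4dCx3cr1 mice (orange) and a bar at the mean. In microglia-like cells the knockout points of Clec4a2 and Clec4a3 lie below all control points, and in CAM-like cells those of Clec12a do.

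Clec4a2, an inhibitory receptor of the dendritic cell immunoreceptor (DCIR) group, stood at 122, 122, 130 and 121 CPM in control mice 1 to 4 and at 37.8, 53.7, 41.4 and 27.4 CPM in knockout mice 1 to 4. Every knockout mouse was below every control mouse. The log2 fold change was -1.52 ± 0.15 (SE, adjusted p = 1.32e-05, edgeR), and it stayed between -1.86 and -1.38 in all 19 settings tried. Clec4a3, a paralog of the same group, had 113, 114, 112 and 115 CPM in control mice. In knockout mice 1 to 4 it had 73.1, 63.6, 47.8 and 37.4 CPM, again without overlap. Its log2 fold change was -0.93 ± 0.16 (adjusted p = 7.59e-04, edgeR), with a range of -1.10 to -0.78 over the settings. Control mice differed little from each other in both genes, with 124 ± 4.20 CPM (SD, n = 4) for Clec4a2.

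The opposite direction was seen for Clec12a (MICL), an inhibitory receptor that senses uric acid crystals from dead cells. It was close to the detection limit in control microglia-like cells, with 2.15, 3.10, 3.11 and 2.12 CPM in mice 1 to 4. Knockout mice 2 to 4 had 30.8, 14.0 and 23.7 CPM, whereas knockout mouse 1, the one high in Xist, had 3.35 CPM and stood just above the controls. The log2 fold change of 2.84 ± 0.58 (adjusted p = 0.00213, edgeR) became 3.18 without knockout mouse 1 and ranged from 2.20 to 5.07 over 18 settings. In microglia-like cells without an Ms4a7 UMI the gene did not pass the filter of the edgeR test. At 2000 UMIs per cell, 0.105% to 0.192% of these cells in control mice had a Clec12a UMI, and 0.0625%, 1.14%, 0.498% and 0.649% in knockout mice 1 to 4. The groups overlapped, with knockout mouse 1 below all control mice, and an exact permutation test of these shares did not pass (adjusted p = 0.229).

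Clec5a, an activating receptor that signals through Tyrobp, had 95.3 to 105 CPM in control and 89.7 to 123 CPM in knockout mice. These ranges overlapped, with a log2 fold change of 0.24 ± 0.09 (adjusted p = 0.0549, edgeR). Without knockout mouse 1, which had the lowest level of all, it became 0.32 with an adjusted p of 0.00121. Clec4a1, another gene of the DCIR group, was low in all mice, at 2.59 to 4.76 CPM in control and 0.870 to 2.61 CPM in knockout mice, with -0.77 ± 0.33 (adjusted p = 0.0779, edgeR) and, without knockout mouse 1, -0.99 (adjusted p = 0.0229).

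The 3 remaining receptors, all of which signal through Fcer1g, were too sparse for the main test in microglia-like cells. Clec4d (MCL) gave 2 UMIs over the 4 control mice and 52 UMIs over the 4 knockout mice, a ratio of 19.4 per UMI sequenced with an exact 95% interval of 5.11 to 165 that covers counting error only. Each knockout mouse, at 0.609 to 1.86 CPM, was above each control mouse, at 0 to 0.111 CPM. Without the low-count filter edgeR gave 4.12 ± 0.71 on the log2 scale (adjusted p = 1.72e-04). Clec4e (Mincle), which binds mycobacterial cord factor, gave 6 UMIs in control and 2 UMIs in knockout mice, with a ratio whose interval of 0.0246 to 1.39 includes equality. Clec4n (dectin-2), which binds fungal mannans, ranged from 0.103 to 2.39 CPM in control and from 0.689 to 4.56 CPM in knockout mice, and the highest value of each group came from mouse 1.

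To compare shares of cells at equal depth, each cell was thinned to 2000 UMIs, which left out 288 of 7782 control and 328 of 9071 knockout microglia-like cells with fewer. Clec4a2 had a UMI in 22.9% ± 0.493 (SD, n = 4) of control and in 7.67% ± 1.80 of knockout cells, and Clec4a3 in 20.2% ± 1.28 and 10.6% ± 2.74. The share for Clec12a was 0.294% ± 0.100 in control and 3.36% ± 2.30 in knockout mice, and for Clec5a 18.4% ± 0.751 and 19.0% ± 2.75. Without thinning, 37.3% to 39.7% of control and 11.9% to 18.0% of knockout cells had a Clec4a2 UMI, and 0.547% to 0.884% and 1.47% to 8.32% had a Clec12a UMI. For Clec4a2, Clec4a3, Clec12a and Clec4d the 2 groups of mice did not overlap and a two-sided exact permutation test gave p = 0.0286, the smallest that 4 against 4 mice allow, which became 0.0571 after adjustment over the 8 receptors. None of the 8 therefore passed, against 4 at an unadjusted p under 0.05. Shares were taken for the receptors only, so that these 4 have no count over all genes beside them. The edgeR test of levels called 46.7% of all genes tested between the same mice. As a background, T cell-like cells, which should lack these receptors, had a Clec4a2 UMI in 9.95% ± 4.35 of control and 1.45% ± 1.80 of knockout cells, and a Clec5a UMI in 3.72% ± 3.14 and 6.63% ± 1.63. Their median depth before thinning was 4323 to 5614 UMIs in control and 3750 to 4562 UMIs in knockout mice, near the 3723 to 3984 and 3841 to 4469 UMIs of microglia-like cells. Free RNA in droplets without a cell held 115 CPM of Clec4a2, 93.7 CPM of Clec4a3, 115 CPM of Clec5a and 22.5 CPM of Clec12a. The droplets also held 2.04 CPM of Clec4d, 6.72 CPM of Clec4n and 3.21 CPM of Clec4e. The Clec4d level of every knockout mouse in microglia-like cells lay below that of the droplets, and the part of free RNA in the Clec4d counts was not tested. Clec12a had a UMI in 1 of 130 control and 2 of 167 knockout T cell-like cells. The 23 control microglia-like cells with a Clec12a UMI were not spread evenly, since 12 of them were among the 119 cells with an Ms4a7 UMI and 11 among the 7375 without.

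Knockout cells less often showed 2 or more receptors. Lower shares of Clec4a2 and Clec4a3 alone lower such counts, and co-occurrence beyond them was not tested. After thinning, 11.9% ± 0.705 (SD, n = 4) of control microglia-like cells showed 2 or more of the 8 receptors and 50.3% ± 1.59 showed none, whereas in knockout mice 5.42% ± 1.93 showed 2 or more and 64.3% ± 3.87 showed none.

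Microglia-like cells were then split by Ms4a7, a gene of CAMs that marks part of the knockout microglia, after thinning. Of the receptors, Clec12a alone among the 4 that could be tested was higher in the Ms4a7-positive cells of knockout mice, in a comparison where 5.96% of 10388 genes were called, 619 in number and 1551 with the mouse as a block. It stood at 11.5, 129, 88.6 and 134 CPM in the Ms4a7-positive cells of knockout mice 1 to 4, in 523, 410, 316 and 519 cells. The Ms4a7-negative cells of the same mice had 0.313, 7.78, 2.74 and 3.54 CPM. All of the former lay above all of the latter, with a log2 difference of 4.68 ± 0.64 (adjusted p = 8.56e-04, edgeR), and within each mouse the positive cells were higher. Knockout mouse 1 was low in both, and leaving it out gave 4.75. With the mouse as a block the difference was 4.71. Clec4a2 (-0.19 ± 0.22, adjusted p = 0.732), Clec4a3 (0.01 ± 0.24, 0.995) and Clec5a (-0.13 ± 0.15, 0.740) did not pass between the same cells. Clec4a2 thus stood at 33.7 to 41.5 CPM in Ms4a7-positive and at 28.6 to 60.1 CPM in Ms4a7-negative knockout cells, and the genotype difference in Ms4a7-negative cells was -1.47 (adjusted p = 1.99e-05, edgeR).

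**Figure D2:**
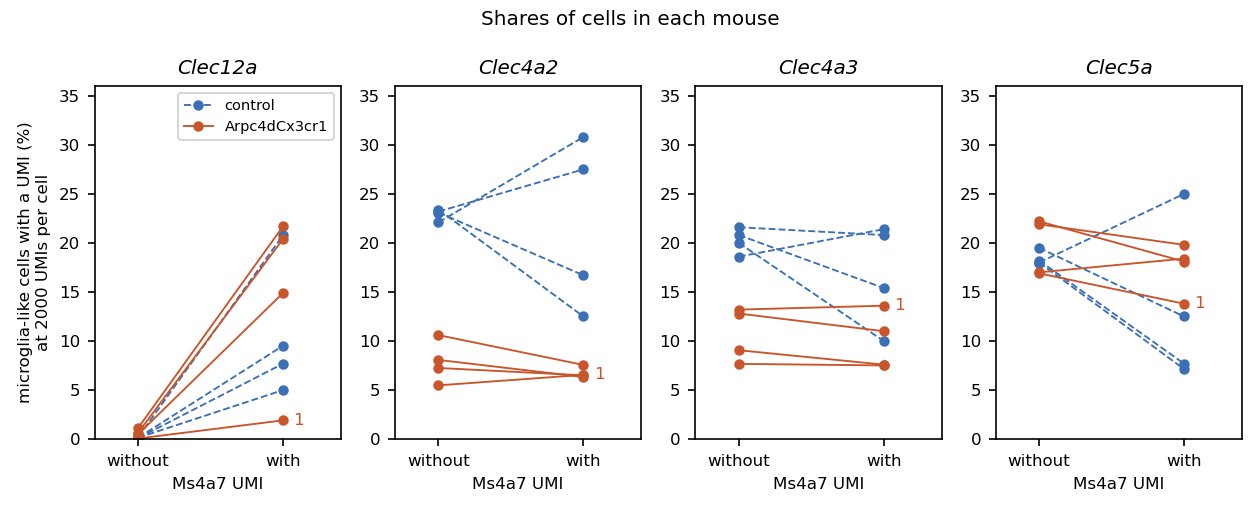
Percent of microglia-like cells with a UMI of Clec12a, Clec4a2, Clec4a3 or Clec5a at 2000 UMIs per cell, in cells without and with an Ms4a7 UMI, with a line for each mouse (control dashed blue, Arpc4dCx3cr1 orange, 1 marks knockout mouse 1). Clec12a reached 14.9% to 21.7% of Ms4a7-positive cells in knockout mice 2 to 4 and 1.91% in knockout mouse 1, while the Clec4a2 lines of knockout mice stay at 10.6% or less on both sides, below all control points.

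A few control cells called microglia-like also had an Ms4a7 UMI, 13 to 42 per mouse after thinning. They had 25 to 188 CPM of Clec12a, where 3 UMIs correspond to 35.7 to 115 CPM. Of 8 CAM markers 3 could be tested between Ms4a7-positive and Ms4a7-negative knockout cells, and all 3 were higher. The 8 summed to 500 to 769 CPM in these control cells and to 149 to 329 CPM in the Ms4a7-positive knockout cells, against 145 to 172 and 51.0 to 87.0 CPM in Ms4a7-negative cells. Their part in the Clec12a difference was not tested. For scale, CAM-like cells summed to 5123 CPM or more for the same list.

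Levels were also read across the 11 clusters of microglia-like cells, formed without the receptors and a list of other C-type lectin genes. Knockout mice, each mouse weighted equally, gave 1.66% to 4.61% of the cells in 4 clusters and 70.7% to 99.8% in the other 7. Among these 7, the cluster led by Xist and Fn1 drew 97.3% of its cells from knockout mouse 1. Cluster levels of Clec4a2 and Clec4a3 therefore largely repeat the genotype difference in the same cells and are not a separate test of it. Clec4a2 stood at 111 to 162 CPM in the 4 clusters made mostly of control cells and at 18.6 to 57.8 CPM in the 7 made mostly of knockout cells, and Clec4a3 at 101 to 146 and 26.7 to 72.4 CPM. For Clec5a the clusters overlapped, with 92.0 to 127 and 89.4 to 127 CPM. Clec12a was at 129 CPM in the cluster with the highest Ms4a7 level, which held 1489 cells and was led by haemoglobin genes and Ms4a7. In the other 10 clusters Clec12a reached 12.8 CPM at most. Within that cluster the knockout mice had 14.2, 163, 149 and 147 CPM from mouse 1 to 4. Its few control cells, 1, 14, 11 and 17 from mouse 1 to 4, had 0, 265, 628 and 184 CPM, a mean of 269 ± 264 CPM (SD, n = 4) beside 118 ± 69.9 CPM in the knockout. Clec4d was also highest there, at 6.15 CPM.

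**Figure D3:**
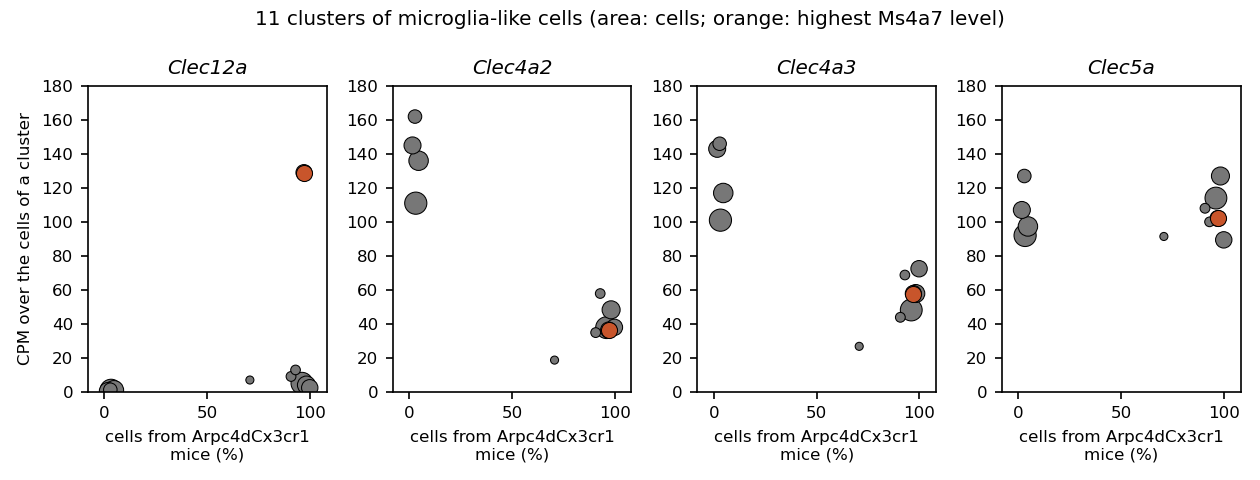
Level in CPM of Clec12a, Clec4a2, Clec4a3 and Clec5a in each of 11 clusters of microglia-like cells against the percent of its cells from Arpc4dCx3cr1 mice, each mouse weighted equally (area of a point: number of cells, orange: the cluster with the highest Ms4a7 level). Clec4a2 and Clec4a3 are low in all clusters of mostly knockout cells, and Clec12a is high in the orange cluster alone.

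Control mice were used to place the receptors among the cell classes. CAMs are the macrophages of the meninges and perivascular spaces. In CAM-like cells 5 of the 6 receptors tested were higher than in microglia-like cells of the same mice and none was lower, where 30.6% of 10574 genes were called. Clec12a stood at 218, 258, 206 and 238 CPM in CAM-like cells of control mice 1 to 4, a log2 difference of 6.64 ± 0.18 from microglia-like cells (adjusted p = 2.63e-24, edgeR). Clec4n had 75.5, 157, 106 and 98.7 CPM (7.57 ± 0.37, adjusted p = 1.08e-17), and Clec4a1 had 84.4, 133, 124 and 223 CPM (5.62 ± 0.25, adjusted p = 1.83e-18). These 3 were near 0 in microglia-like cells and separated the 2 classes without overlap. Clec4n passed the filter here through the CAM-like sums, so that it could only be called higher. Clec4a2 (1.48 ± 0.11) and Clec4a3 (1.21 ± 0.10) were higher by less, and Clec5a, at 62.2 to 67.9 CPM, did not pass with -0.36 ± 0.15 (adjusted p = 0.0728).

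In monocyte-like cells all 7 receptors tested differed from microglia-like cells of control mice, 6 higher and 1 lower, where 48.3% of 10491 genes were called. Clec4e (mean 0.160 CPM) and Clec4n (0.895 CPM) were too sparse in microglia-like cells to pass the filter there. They passed it here through the monocyte-like sums, so that they could only be called higher and the count leans on the filter. Clec12a (168 to 234 CPM, log2 difference 6.71 ± 0.23), Clec4e (8.57 to 24.4 CPM, 6.84 ± 0.79), Clec4n (17.1 to 63.0 CPM, 5.82 ± 0.73) and Clec4a1 (90.0 to 140 CPM, 5.59 ± 0.28) were the furthest apart. Clec4a3 (1.43 ± 0.13) and Clec4a2 (0.77 ± 0.16) were also called higher. For Clec4a2 the CPM themselves differed little, with 138 ± 47.0 in monocyte-like and 124 ± 4.20 in microglia-like cells (SD, n = 4) and overlapping ranges. The fitted differences between classes include TMM scaling, which the CPM do not. Clec5a, at 20.3 to 55.7 CPM, was lower with -1.11 ± 0.26 (adjusted p = 8.07e-04, edgeR). From the highest control mean to the lowest, the order was CAM-like, monocyte-like and microglia-like for Clec12a, Clec4n, Clec4a1, Clec4a2 and Clec4a3, and microglia-like, CAM-like and monocyte-like for Clec5a. The CAM-like and monocyte-like ranges overlapped for Clec12a, Clec4a1 and Clec4a3, as did the monocyte-like and microglia-like ranges for Clec4a2, so that these neighbours in the order were not apart. Granulocyte-like cells were few, 2 to 32 per mouse, and are described only. Clec4d had 73.0 to 156 CPM there in knockout mice and Clec4e 27.9 to 218 CPM, while Clec4n was at 6.06 CPM or less in all 8 mice.

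The genes whose log2 levels followed Clec12a most closely over the 24 sums of microglia-like, CAM-like and monocyte-like cells of the 8 mice were H2-Eb1 (Pearson r = 0.96), H2-Aa (0.96) and H2-Ab1 (0.95), which encode chains of MHC class II. For Clec4n they were Cd93 (0.92), Pltp (0.92) and F13a1 (0.91). These sums share mice and differ mainly by cell class, and the correlations are descriptions.

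For Clec12a, the genotype difference in CAM-like cells was opposite in direction to that in microglia-like cells. Of 6 receptors tested Clec12a fell and Clec4n rose in knockout CAM-like cells, in a comparison where 1.04% of 3271 genes were called. Clec12a stood at 79.1, 121, 89.7 and 111 CPM in knockout mice 1 to 4, all below the 206 CPM of the lowest control mouse, with a log2 fold change of -1.20 ± 0.23 (adjusted p = 0.0126, edgeR). At 2000 UMIs per cell, 9.68% to 26.7% of knockout and 34.1% to 47.3% of control CAM-like cells had a Clec12a UMI. Clec4n reached 173, 177, 232 and 324 CPM in knockout mice, all above the control range of 75.5 to 157 CPM, with 1.06 ± 0.25 (adjusted p = 0.0448). This call was lost with DESeq2 and when control mouse 1, 3 or 4 or knockout mouse 3 or 4 was left out, and mouse number as a replicate block ended it too (1.08, adjusted p = 0.0865).

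The other CAM-like levels overlapped between genotypes. Clec4a2 had 209 to 366 CPM in control and 298 to 475 CPM in knockout mice (0.33 ± 0.23, adjusted p = 0.652), and Clec4a3 208 to 230 and 144 to 331 CPM (0.04 ± 0.24, 0.976). Only 21 to 43 knockout CAM-like cells per mouse were available. All 10 microglia markers were above 0 in CAM-like cells and summed to 6058 to 7377 CPM in control and to 3301 to 5654 CPM in knockout CAM-like cells. The 7 monocyte markers summed to 161 to 230 CPM in control and to 0 to 180 CPM in knockout CAM-like cells. Of these 7, 1 could be tested and was called lower, at -1.89 on the log2 scale. The part of microglia and monocyte markers in these results was not tested.

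A test of the difference between the classes used 16 sums, 2 from each mouse, and called 4.87% of 11167 genes. The fit did not include the mouse and so treated these paired sums as independent. Its replicate block was the mouse number, not the mouse. The genotype effect in CAM-like cells minus that in microglia-like cells was -4.11 ± 0.69 for Clec12a (adjusted p = 6.08e-04, edgeR) and 1.78 ± 0.28 for Clec4a2 (adjusted p = 2.55e-04), so that both genes responded differently in the 2 classes. Without knockout mouse 1 the values were -4.38 and 1.53. For Clec4a3 it was 0.89 ± 0.31 (adjusted p = 0.104). At a coarser clustering (resolution 0.4), in which the Ms4a7-high knockout cells joined the CAM cluster, Clec4a2 lost the call and turned to -0.45, while Clec12a kept its sign at -3.17.

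**Figure D4:**
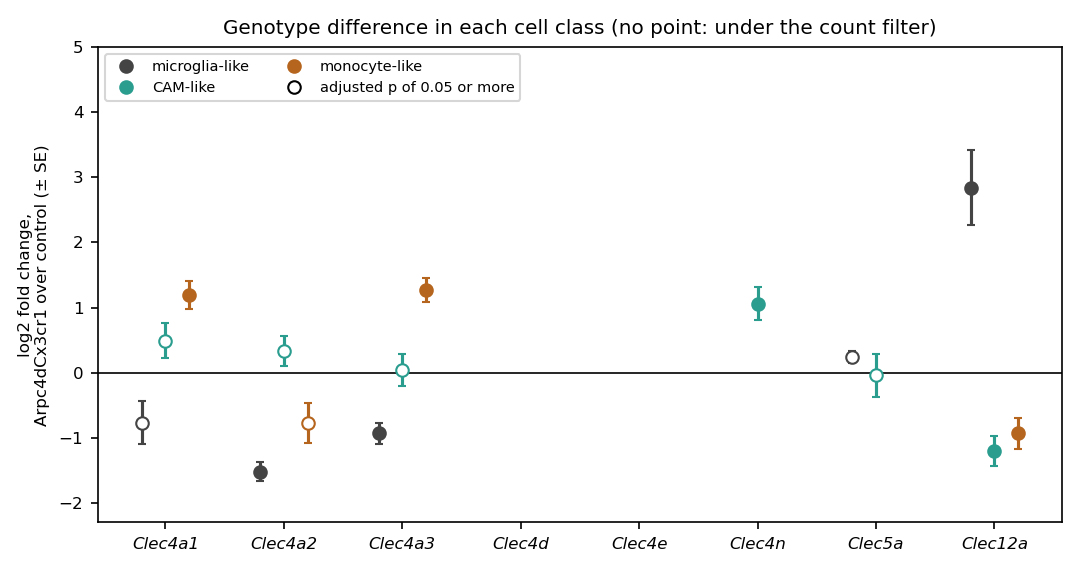
Log2 fold change (Arpc4dCx3cr1 over control, ± SE) of each receptor that passed the count filter in microglia-like (grey), CAM-like (green) and monocyte-like cells (brown), filled where the adjusted p was under 0.05. Clec12a is above 0 in microglia-like cells and below 0 in the other classes, and Clec4a3 is below 0 in microglia-like and above 0 in monocyte-like cells.

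In monocyte-like cells, Clec4a1 and Clec4a3 rose in the knockout and Clec12a fell, 3 of the 4 receptors tested, where 8.0% of 3162 genes were called. Clec4a3 stood at 239, 184, 224 and 182 CPM in control mice 1 to 4 and at 551, 413, 668 and 585 CPM in knockout mice 1 to 4, with no overlap (1.27 ± 0.19, adjusted p = 0.00147, edgeR). Clec4a1 went from 115, 90.0, 114 and 140 CPM to 241, 315, 341 and 259 CPM (1.19 ± 0.21, adjusted p = 0.00402), also without overlap. Both calls held in all 15 settings. Clec12a fell by 0.93 ± 0.24 on the log2 scale (adjusted p = 0.0295), from 168 to 234 CPM down to 89.3 to 177 CPM with overlapping ranges, and it lost the call when knockout mouse 1 or 3 or control mouse 1, 2 or 3 was left out. Without knockout mouse 1 it was -0.77 (adjusted p = 0.101). Clec4a2 had 138 ± 47.0 CPM (SD, n = 4) in control and 95.5 ± 31.8 CPM in knockout mice, with overlapping ranges (-0.77 ± 0.31, adjusted p = 0.182). Clec4e, with 8.57 to 24.4 CPM in control and 11.2 to 96.7 CPM in knockout mice, did not pass the filter. Without that filter it gave 1.92 ± 0.44 (adjusted p = 0.00124), and with DESeq2 1.76 (adjusted p = 0.119).

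Marker levels shifted inside the monocyte-like class as well. The 7 monocyte markers summed to 1091 to 1786 CPM in control and 1516 to 4367 CPM in knockout mice. The 6 dendritic cell markers went the other way, with 931 to 1525 CPM in control and 185 to 753 CPM in knockout mice, and the cluster was also led by the dendritic cell gene Cd209a and MHC class II genes. The 8 granulocyte markers summed to 40.6 to 112 CPM in control and 92.4 to 585 CPM in knockout mice. The part of these markers in the receptor differences was not tested. Mgl2, a lectin of dendritic cells and macrophages, fell by 5.70 ± 0.55 on the log2 scale in the same cells (adjusted p = 5.95e-05, edgeR).

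Genes that act with these receptors were taken from lists, whose counts in microglia-like cells stand beside the 46.7% of all genes tested that were called there in either direction. In microglia-like cells all 3 adaptors rose, Tyrobp by 0.64 ± 0.10 on the log2 scale (2778 ± 28.9 CPM in control and 4016 ± 597 CPM in knockout mice, SD, n = 4), Hcst by 0.51 ± 0.10 and Fcer1g by 0.24 ± 0.08 (adjusted p = 2.90e-04, 0.00166 and 0.0229, edgeR). Tyrobp carries the signal of Clec5a, and Fcer1g that of Clec4d, Clec4e and Clec4n. Of 6 kinases 2 rose, 1 fell and 3 did not pass. Fgr, a Src family kinase of myeloid cells, rose by 3.47 ± 0.18 (11.2 ± 3.28 CPM in control and 116 ± 16.8 CPM in knockout mice), and Btk fell by 0.24 ± 0.05. Of the 9 genes of the CARD9 module, the signalling complex downstream of Syk, 2 rose, 1 fell and 6 did not pass. Vav3 rose by 2.45 ± 0.54 and Card9 itself fell by 0.48 ± 0.07, from 28.7 ± 1.70 to 19.0 ± 0.639 CPM. Of 3 inhibitory phosphatases only Inpp5d passed, with -0.15 ± 0.05 (adjusted p = 0.0287).

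Against the same 46.7% of all genes, of 10 genes on the list of transcription factors 3 rose and 4 fell. That list also holds the kinase gene Map3k14. Nfkb2 stood at 0.86 ± 0.17 and Relb at 0.72 ± 0.13 against Nfatc2 at -0.49 ± 0.07. Among the cytokine and inflammasome outputs 6 of 10 genes could be tested, of which 3 rose, 2 fell and 1 did not pass. The cytokine gene Il1b rose by 4.44 ± 0.52 (4.71 ± 0.811 CPM in control and 97.6 ± 74.6 CPM in knockout mice) and the chemokine gene Cxcl2 by 4.79 ± 0.47, whereas Il6 fell by 3.15 ± 0.35 and Nlrp3, the sensor of an inflammasome, by 0.60 ± 0.09. Of 30 other C-type lectin genes 12 were tested, with 7 higher, 2 lower and 3 not called, and a median of 1.53. Genes near 0 in 1 group can pass the filter through the other group alone, which ties such counts and medians to the filter. Cd69 had 0.652 ± 0.373 CPM in control and 14.9 ± 5.82 CPM in knockout mice. Among the outputs, Cxcl2 had 0.194 ± 0.0615 and 5.08 ± 1.88 CPM. Colec12, a scavenger receptor, rose by 5.03 ± 0.50 and Cd69, an activation marker of lymphocytes, by 4.59 ± 0.45. Clec4a4, the inhibitory paralog of Clec4a2, fell by 2.38 ± 0.32 from 2.60 ± 0.846 to 0.469 ± 0.116 CPM, and Clec4a4 and Clec4a2 share some stretches of sequence.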

How the data were processed

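Viable CD45+ brain cells of 4 control and 4 Arpc4dCx3cr1 mice had been tagged by mouse, pooled and sequenced as 1 library. Reads had been aligned to mm10 by the authors with Cell Ranger (7.1.0 per the file headers, 6.1.2 in the submitters' processing notes) who deposited raw UMI counts per gene and cell, 1 table per mouse, and 1 table of all droplets. The authors' correction for free RNA is not part of these counts. All 8 labelled mice were kept here, while the study left out its female knockout mouse. Receptors, gene lists and tests were chosen with earlier results of these data known.

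Barcodes with 200 or more genes detected and no more than 20% of UMIs from mitochondrial genes were kept. They were clustered with Seurat 5.3.0 (10000 variable genes, 20 components, 20 neighbours, resolution 0.8), and the clusters were named by markers. The receptors and a list of other C-type lectin genes were left out of the variable genes. Clusters with low depth, or with more markers of another class among their 10 leading genes, were left unnamed, a rule partly added after the clusters were seen. Doublets with more than 1 tag had no mouse. No doublet caller was run, and the deepest cells were left out in an alternative. Counts were summed per mouse and class (at least 10 cells) and tested with edgeR 4.0.16 (TMM, filterByExpr, quasi-likelihood test, Benjamini-Hochberg over all genes tested, threshold 0.05). The mouse is the replicate. Shares used cells thinned to 2000 UMIs and two-sided exact permutation tests. Positive and negative cells, and cell classes, came from the same mice, which pairs these sums. Main fits on such sums did not include the mouse. Between genotypes no source used here ties mice of the same number to each other, and the correlation of the deviations of same-numbered mice was -0.10, -0.02, -0.06 and -0.01. Alternatives were DESeq2 1.42.0, its size factors, no filter, free RNA subtracted at 10%, each mouse left out, a replicate block, resolution 0.4 and others. Receptors named are all 8 with rows. Other genes were named as the 3 with the highest correlation to Clec12a or Clec4n, or as up to 3 genes each way per list with the largest fold among those called. Clec7a, which the rule also lists, was not analysed here. Scripts were tested on simulated data.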

Additional observations from a re-analysis of the deposited data

Results flagged for a closer look

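The genotype effect differed between cell classes for Clec12a, by -4.11 on the log2 scale (CAM-like minus microglia-like cells), and for Clec4a2, by 1.78, both tested with an interaction term.

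Among 48 groups of 4 mice (8 receptors, 3 classes, 2 genotypes) 10 held a mouse far from the other 3 by Dixon's gap ratio, where chance flags about 1 group in 20. In microglia-like cells these were Clec4a2 in a control mouse (130 CPM) and Clec4n in a knockout mouse (4.56 CPM). In CAM-like cells they were Clec4d (18.5 CPM) and Clec4e (7.19 CPM) in a knockout mouse and Clec4e in a control mouse (2.26 CPM), each from 1 or 2 UMIs and with the other 3 mice at 0. In monocyte-like cells Clec4d reached 46.5 CPM and Clec4n 141 CPM in knockout mouse 1, Clec5a was at 0 in knockout mouse 4, and in control mice Clec4n reached 63.0 CPM in mouse 4 and Clec5a 55.7 CPM in mouse 2.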

How the results depend on the processing

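Calls of single receptors stayed on their side of the threshold in 548 of the results recomputed, while 14 lost the call, 20 gained it and 5 changed direction. The number of receptors called in microglia-like cells, 3, became 5 without the low-count filter and 3 to 5 without 1 mouse. In CAM-like cells 2 became 1 with DESeq2, with free RNA subtracted, without the deepest cells and with a replicate block, 1 to 2 without 1 mouse, and 5 at resolution 0.4. There Clec4a1 (-2.41), Clec4a2 (-1.93), Clec4a3 (-1.50) and Clec4n (-1.84) turned negative, with 999 genes called in place of 34 (10 to 60 without 1 mouse), as the Ms4a7-high cells were counted as CAM-like, and the difference between classes for Clec4a2 became -0.45. In monocyte-like cells 3 became 5 without the filter (2 to 4 without 1 mouse), and for the difference between classes 2 became 5 without the filter and 4 with DESeq2 (2 to 3 without 1 mouse). Between Ms4a7-positive and Ms4a7-negative cells 1 became 2 when the cluster with the highest Ms4a7 level was used. Numbers of receptors against microglia-like cells were 5 (CAM-like) and 6 to 7 (monocyte-like) without 1 mouse. With a replicate block, 1551 genes in place of 619 were called between Ms4a7-positive and Ms4a7-negative cells (1120 without knockout mouse 1, and 195 to 261 without knockout mouse 2, 3 or 4), Clec4a3 passed the difference between classes (0.90, adjusted p = 0.0494), and beside these and Clec4n no receptor call changed. The shares gave 0 receptors past the threshold in every setting, and with 3 against 4 mice the exact test cannot go below 0.0571. The median over all genes was 0.67 with DESeq2, which tests more low genes, and -0.24 with edgeR between monocyte-like and microglia-like cells, 0.42 and -0.05 between CAM-like and microglia-like cells, and 0.35 and -0.15 for the difference between classes, where 30.8% (DESeq2) and 18.0% (edgeR) of the called genes were higher. Few CAM-like and monocyte-like cells limit the precision there, since 3 UMIs equal 6.79 to 33.1 CPM in a CAM-like sum and 3.67 to 33.7 CPM in a monocyte-like sum.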

Other observations

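Genes that act with the receptors also differed outside the whole microglia-like class. In knockout monocyte-like cells Fcer1g, the adaptor of Clec4d, Clec4e and Clec4n, rose by 0.58 ± 0.13 on the log2 scale (adjusted p = 0.0130, edgeR), and of 5 kinases tested, where 8.0% of all genes were called, Fgr (0.88 ± 0.24) and Lyn (0.72 ± 0.15) rose. Il1b rose there by 1.76 ± 0.41 (adjusted p = 0.0163). Of 8 other C-type lectin genes tested in these cells 4 fell and none rose, among them Clec4b1 (-2.14 ± 0.32) and Klrk1, the activating receptor NKG2D (-2.18 ± 0.41). Genes low in knockout mice could pass the filter through control mice alone, and the part of the filter in this count was not tested. Monocyte markers (1091 to 1786 CPM in control and 1516 to 4367 CPM in knockout mice) and dendritic cell markers (931 to 1525 and 185 to 753 CPM) moved in the same cells, and their part was not tested. In knockout CAM-like cells 1 of 7 other lectin genes was called, where 1.04% of all genes were. It was Clec10a, a galactose-binding receptor, with 1.48 ± 0.26 (adjusted p = 0.00660).

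Within knockout microglia-like cells, those with an Ms4a7 UMI had more of Vav3, a guanine nucleotide exchange factor (3.93 ± 0.45, adjusted p = 2.58e-04, edgeR), and of the lectin gene Clec2d (1.07 ± 0.13). They had less of the collagen receptor Mrc2 (-2.14 ± 0.24), of Fgr (-0.64 ± 0.14) and of the inhibitory phosphatase Inpp5d (-0.30 ± 0.07, adjusted p = 0.0353).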
